A study of Mus musculus with 8 samples.

Results

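The secreted and surface-bound proteins with which lung epithelium meets inhaled microbes were followed through 10 genes. These were the mucins Muc1 and Muc5b, the BPI-fold proteins Bpifa1 and Bpifb1, the lysozyme Lyz1, the iron-withholding lipocalin Lcn2, the lectin Reg3g, the chitinase-like protein Chil1, the immunoglobulin receptor Pigr and Hc, the gene of complement component C5. They were chosen by name as epithelial defence genes, and array features were assigned to them by gene symbol. Bpifb1 had no feature named for it, so 9 of the 10 genes, read by 10 features, were measured among 20842 genes in all. The samples were 8 lungs of newborn C57Bl/6J mice, 4 from pups labelled Fgf10+/- and 4 from wild-type pups. Pups of both groups had been kept in a chamber at 20% oxygen from postnatal day 0 to day 3. The sample titles call the first group TG. How its allele was made is not stated here. The submitters describe the samples of a group as independent, but their litter and sex are unknown here. Every p-value below therefore measures only the spread between these samples.

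FGF10 is a growth factor of the lung mesenchyme that signals to the epithelium and is needed for the lung to branch and for its epithelial cells to form. Airway club, goblet and gland cells release mucins, BPI-fold proteins and the cleaved immunoglobulin receptor onto the airway surface, and alveolar type 2 cells release lysozyme, collectins and complement proteins into the alveolar fluid. Several of these genes are also expressed in neutrophils or macrophages, or are switched on in epithelium by cytokines such as IL-17 and IL-22 when microbes are sensed.

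RNA was hybridised to 1-colour Agilent arrays, read as log2 signals with 1 common distribution on all arrays, whose median was 3.47. A difference of 1 on this scale is a doubling. Signals of different features cannot be set against each other, and a gene whose mean lay below 3.47 is called dim here. The Fgf10 signal was 7.55, 7.96, 7.96 and 8.33 in the libraries labelled Fgf10+/-, against 7.49, 7.81, 6.89 and 7.64 in wild type. It was therefore not lower under the Fgf10+/- label (difference 0.49, SE 0.24; limma adjusted p = 0.507). The 10 features named for Fgf10 differed by 0.07 to 0.49, with 0.31 for their mean, and the difference was 0.30 without wild-type replicate 3. A feature outside the altered part of the gene would not show the genotype, but feature positions are unknown here and this was not tested. Of the lung markers, 15 of 15 for alveolar type 2 cells and 11 of 12 for club cells had signals that were not dim. Of all genes 33.29% were dim, so this alone does not show lung identity. Wild-type replicate 4 stood apart from the other 7 libraries: its mean over 13 skeletal muscle markers was 8.18, against 4.11 to 4.57 elsewhere, and its mean over 10 cartilage markers was 7.72, against 3.46 to 3.72 elsewhere. Differences of the defence genes without this library are therefore given as well.

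None of the 9 defence genes passed the test across all genes, and neither did any other gene (0 of 20842, 0%, at an adjusted p under 0.05 by limma, a linear model with a variance shared across genes; 2298 genes, 11%, had an unadjusted p under 0.05). The 2 members with an unadjusted p under 0.05 were Muc1 and Hc, both with lower means in the libraries labelled Fgf10+/-, while of all genes 6.29% were lower at that level and 4.74% were higher. For 0 of the 9 genes did the groups fail to overlap, against 7.39% of all genes (4.4% lower and 2.99% higher without overlap). The median difference was -0.05 over the 9 genes, with 6 lower and 3 higher means, and over all genes the median was 0.00, with 50.2% lower means. The members thus lay on both sides of 0, as the plot of differences with their intervals shows. Without wild-type replicate 4 the median was -0.13 and Muc1 alone had an unadjusted p under 0.05, a level that 12.8% of all genes then reached.

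**Figure D1:**
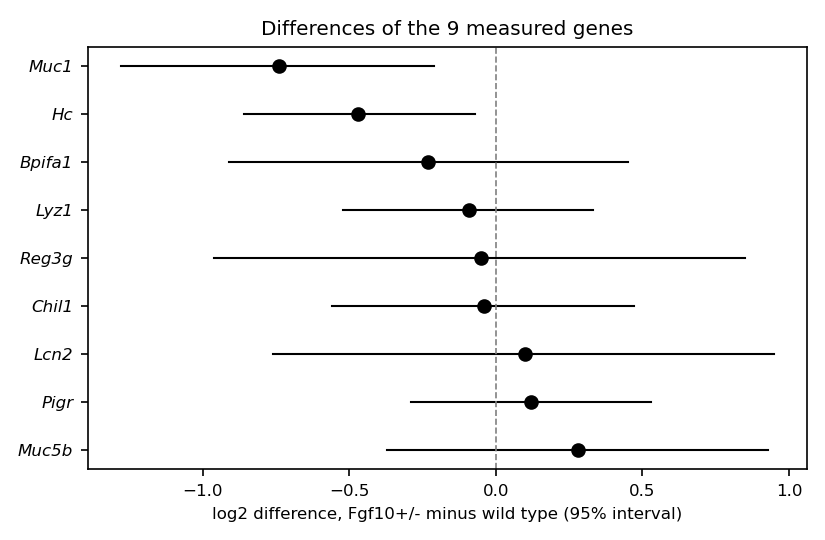
Log2 difference (libraries labelled Fgf10+/- minus wild type, x axis) of the 9 measured defence genes, with points for the limma estimate and lines for its 95% interval (4 libraries per group). The intervals of Muc1 (-1.28 to -0.21) and Hc (-0.86 to -0.07) lie below 0, before any adjustment for the 20842 genes tested, and the other 7 span it.

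Muc1 encodes a transmembrane mucin of the apical epithelial surface that is known to damp Toll-like receptor signalling. Its signal was 7.58, 6.77, 6.95 and 6.63 in the libraries labelled Fgf10+/-, against 7.78, 7.76, 8.02 and 7.34 in wild type. Replicates 2, 3 and 4 of the libraries labelled Fgf10+/- lay below every wild-type library, and replicate 1 lay above wild-type replicate 4, so the groups overlapped by that pair. The means were 6.98 ± 0.42 in the libraries labelled Fgf10+/- and 7.73 ± 0.28 in wild type (SD, n = 4 each), a difference of -0.74 (SE 0.23, 95% interval -1.28 to -0.21), or 0.597 times the wild-type signal. That difference did not pass across all genes (limma adjusted p = 0.289; two-sided exact permutation p = 0.0571, where 0.0286 is the smallest that 4 against 4 libraries allow). It was -0.87 without wild-type replicate 4 (limma adjusted p = 0.204). The sign and an unadjusted p under 0.05 held for Muc1 in all 19 alternative settings that were run. These settings refit the same libraries, so they are not independent of each other. In them 8.74% to 18.3% of the genes tested had an unadjusted p under 0.05.

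Alveolar type 2 and club cell markers also had lower means in the libraries labelled Fgf10+/-. Of 11 goblet and gland markers 8 had higher means, but 6 of the 11 were dim. Among those not dim, Muc5ac and Ltf had higher means and Spdef, Agr2 and Tff2 lower ones. Of 10 basal markers 7 had higher means, but 7 of the 10 were dim. At an unadjusted limma p under 0.05, 1 goblet and gland marker was higher and 0 lower, and 1 basal marker was higher and 1 lower (all genes, 4.74% and 6.29%). The mean signal of the 15 alveolar type 2 markers ran from 10.71 to 10.91 in the libraries labelled Fgf10+/- and from 11.26 to 11.39 in wild type, a difference of -0.55, and all 15 markers had a lower mean. Sftpc, 1 of the 15, read 15.98 to 15.99 in all 8 libraries, where 15.99 was the highest deposited value. At that ceiling it could show little difference. The mean signal of the 12 club cell markers ran from 10.31 to 10.77 in the libraries labelled Fgf10+/- and from 10.82 to 10.99 in wild type. None of these markers was listed at 0, since the lowest deposited value was 1.51. In RNA of a whole lung, fewer cells of a type and less RNA per cell cannot be told apart. The part of these marker levels in the Muc1 and Hc differences was not tested.

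Hc encodes complement component C5, whose cleavage yields the anaphylatoxin C5a and starts the membrane attack complex. Its signal was 13.75, 13.25, 13.14 and 13.02 in the libraries labelled Fgf10+/-, against 13.84, 13.82, 13.56 and 13.81 in wild type. As for Muc1, replicates 2, 3 and 4 of the libraries labelled Fgf10+/- lay below every wild-type library, and replicate 1 lay above a wild-type library, here replicate 3. The means were 13.29 ± 0.32 in the libraries labelled Fgf10+/- and 13.76 ± 0.13 in wild type (SD, n = 4 each), and the difference of -0.47 (SE 0.17, 95% interval -0.86 to -0.07) did not pass (limma adjusted p = 0.371; exact permutation p = 0.0571). It was -0.45 without wild-type replicate 4, and the unadjusted p was under 0.05 in 12 of 19 alternative settings, the same refits as for Muc1. Liver is the main source of circulating C5. The mean of 10 hepatocyte markers ran from 4.32 to 4.67 in the libraries labelled Fgf10+/- and from 4.33 to 5.06 in wild type. Of the 10 markers, 5 were dim, and Alb averaged 3.67, close to the limit of 3.47. Trf was much the brightest, at 12.65 to 12.86 in the libraries labelled Fgf10+/-, against 13.17 to 13.40 in wild type. This mean is therefore a weak measure of hepatocyte RNA, and the part of liver in the Hc signal was not tested.

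The 250 bases before the start of both genes are shown because these were the 2 members with an unadjusted p under 0.05. They are from RefSeq's windows on GRCm38.p6, 5′ to 3′ on the strand of the gene: chr3:89228806-89229055 (plus strand) for Muc1 and chr2:35061413-35061662 (minus strand) for Hc. Both strands were searched for TATAAA (the TATA box), GGGCGG (a GC box), TGTTTA (a forkhead-type core) and TTGCNNAA (a C/EBP-type site), and capitals mark the matches.
Muc1: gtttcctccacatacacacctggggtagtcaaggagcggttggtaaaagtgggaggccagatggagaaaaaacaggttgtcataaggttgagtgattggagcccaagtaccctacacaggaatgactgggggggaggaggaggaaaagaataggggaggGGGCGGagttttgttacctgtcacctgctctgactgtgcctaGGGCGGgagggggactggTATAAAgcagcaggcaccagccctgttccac
Hc: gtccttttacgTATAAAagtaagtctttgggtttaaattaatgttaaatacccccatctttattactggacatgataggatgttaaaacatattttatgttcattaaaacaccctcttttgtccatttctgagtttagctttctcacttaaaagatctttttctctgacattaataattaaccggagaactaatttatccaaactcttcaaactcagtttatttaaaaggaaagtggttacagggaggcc
Muc1 held TATAAA 1 time and GGGCGG 2 times, and Hc held TATAAA 1 time, far from its start. Among 32851 windows of this length, TATAAA occurred in 12.4%, GGGCGG in 32.7%, TGTTTA in 12% and TTGCNNAA in 9.56%. These matches describe the letters only.

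**Figure D2:**
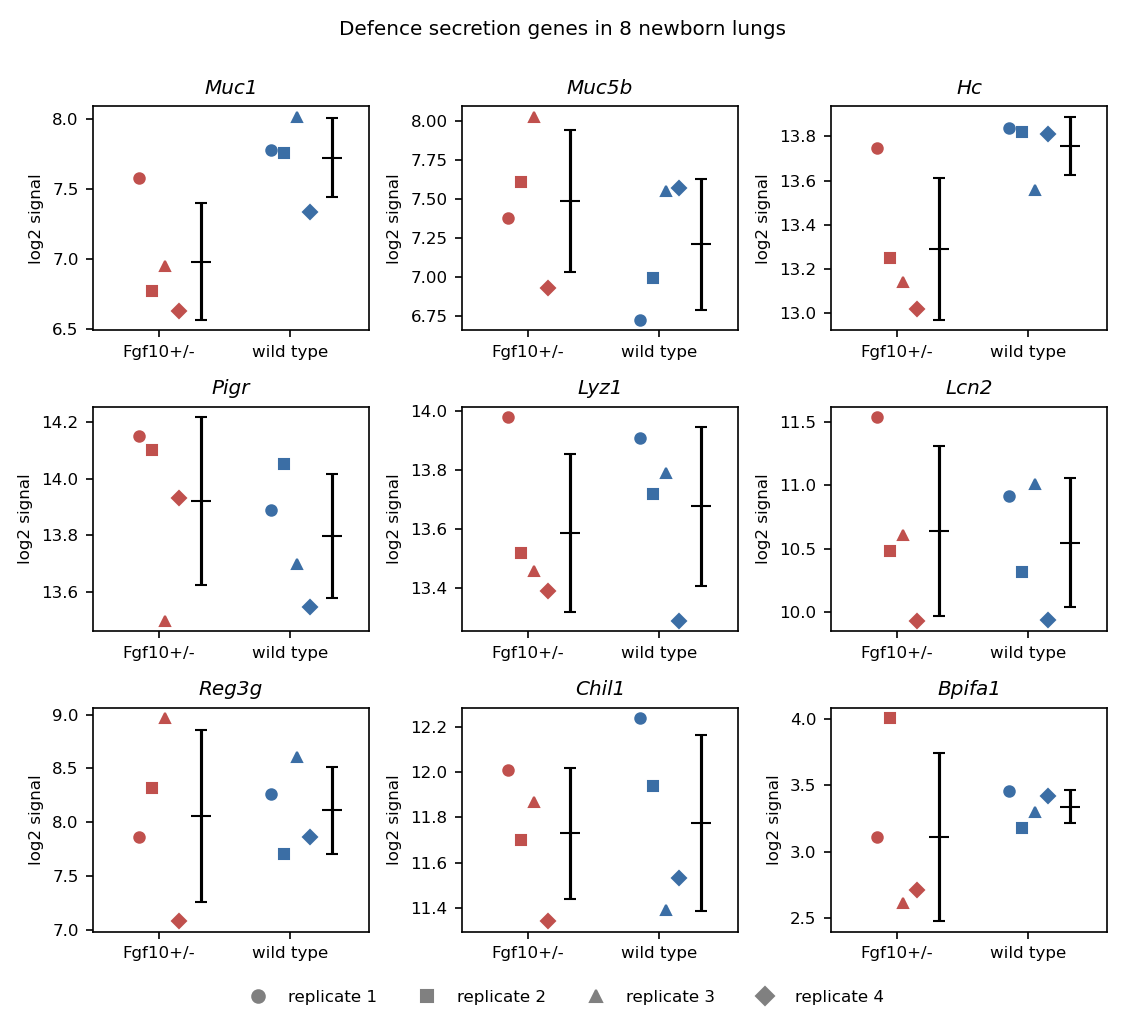
Log2 signal (y axis) of the 9 measured defence genes in each library, with the libraries labelled Fgf10+/- in red left of wild type in blue, marker shapes for replicate numbers, and bars for the mean ± SD of 4 libraries. For Muc1, Hc and the dim Bpifa1 3 of the 4 red points lie below all blue points, and the red and blue points overlap in every panel.

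Muc5b encodes the gel-forming mucin that is needed for mucociliary clearance in mice. Its signal was 7.38, 7.61, 8.03 and 6.93 in the libraries labelled Fgf10+/-, against 6.72, 6.99, 7.55 and 7.57 in wild type. The 2 highest values were under the Fgf10+/- label, and the ranges overlapped. The difference of 0.28 (SE 0.28, 95% interval -0.37 to 0.93; limma adjusted p = 0.775) had the opposite sign to that of Muc1, was within the spread between libraries, and was 0.40 without wild-type replicate 4. The interval leaves room for up to 1.91 times the wild-type signal.

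Bpifa1 encodes an abundant airway surfactant-like protein that binds lipids and restrains bacterial growth. It was dim, at 3.11, 4.01, 2.61 and 2.71 in the libraries labelled Fgf10+/-, against 3.46, 3.18, 3.30 and 3.42 in wild type. The 4 wild-type values lay within 0.29 of each other, while the values under the Fgf10+/- label spread over 1.40 and lay on both sides of them. The difference was -0.23 (SE 0.29, 95% interval -0.91 to 0.45; limma adjusted p = 0.828), and near this floor a difference may be compressed by an unknown amount. It was -0.53 without Fgf10+/- replicate 2 and -0.06 without Fgf10+/- replicate 3.

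Lyz1 encodes a lysozyme, which cuts the peptidoglycan of bacterial walls. Its signal was 13.98, 13.52, 13.46 and 13.39 in the libraries labelled Fgf10+/-, against 13.91, 13.72, 13.79 and 13.29 in wild type. The groups overlapped over most of their range, 13.39 to 13.98 in the libraries labelled Fgf10+/- and 13.29 to 13.91 in wild type, with a difference of -0.09 (SE 0.18, 95% interval -0.52 to 0.33; limma adjusted p = 0.898). Lyz2, the neighbouring and closely related lysozyme gene that is prominent in macrophages and alveolar type 2 cells, had 11.77, 11.47, 11.81 and 11.13 in the libraries labelled Fgf10+/-, against 11.97, 11.91, 12.15 and 11.70 in wild type. Its difference of -0.39 (SE 0.18; limma adjusted p = 0.485) did not pass either, and whether the 2 genes differed in response was not tested. Because the transcripts are closely similar and probe positions are unknown here, the features may read both transcripts, and each value is uncertain to that extent.

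The stretches before the 2 lysozyme genes are shown to let them be compared (RefSeq, GRCm38.p6, both on the minus strand, chr10:117292869-117293118 for Lyz1 and chr10:117282273-117282522 for Lyz2). Capitals mark the bases that differ between the 2 in an ungapped alignment from the start site.
Lyz1: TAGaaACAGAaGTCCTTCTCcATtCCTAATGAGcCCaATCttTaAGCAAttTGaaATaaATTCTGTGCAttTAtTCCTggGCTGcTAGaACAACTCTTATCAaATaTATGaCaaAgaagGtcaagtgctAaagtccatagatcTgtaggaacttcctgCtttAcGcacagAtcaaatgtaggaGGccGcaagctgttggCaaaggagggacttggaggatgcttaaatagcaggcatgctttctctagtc
Lyz2: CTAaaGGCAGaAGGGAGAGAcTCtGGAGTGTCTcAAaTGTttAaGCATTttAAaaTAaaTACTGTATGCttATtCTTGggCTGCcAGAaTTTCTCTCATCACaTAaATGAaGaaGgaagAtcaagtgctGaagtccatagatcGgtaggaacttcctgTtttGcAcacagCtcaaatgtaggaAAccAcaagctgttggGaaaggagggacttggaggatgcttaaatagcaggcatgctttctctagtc
Of 250 bases, 98 differed (60.8% identical). The 100 bases nearest the start differed at 8 positions (92% identical), and the 150 farther away were 40% identical without gaps.

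Lcn2 encodes lipocalin 2, which binds bacterial siderophores and is made both by inflamed epithelium and in neutrophil granules. Its signal was 11.54, 10.48, 10.61 and 9.93 in the libraries labelled Fgf10+/-, against 10.92, 10.32, 11.01 and 9.94 in wild type. The wild-type range lay within that of the libraries labelled Fgf10+/-, and the difference of 0.10 (SE 0.37, 95% interval -0.76 to 0.95; limma adjusted p = 0.953) took the other sign, -0.11, without wild-type replicate 4. Among the promoter windows of the members, that of Lcn2 was 1 of 2 with TTGCNNAA, and it is shown for that match (RefSeq, GRCm38.p6, chr2:32387740-32387989, minus strand). Capitals mark TTGCNNAA and, read on the opposite strand, GGGCGG.
Lcn2: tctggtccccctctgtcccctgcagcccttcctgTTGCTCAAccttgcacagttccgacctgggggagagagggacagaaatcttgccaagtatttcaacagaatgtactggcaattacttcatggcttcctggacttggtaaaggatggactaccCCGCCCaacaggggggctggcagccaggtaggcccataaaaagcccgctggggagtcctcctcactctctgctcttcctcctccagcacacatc

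The level of Lcn2 differed between libraries of the same genotype together with neutrophil markers. The mean signal of 12 of 13 listed neutrophil markers was 8.32, 6.99, 7.64 and 6.75 in the libraries labelled Fgf10+/-, against 8.15, 7.01, 7.56 and 6.34 in wild type, with 1 marker, Mpo, dim and none listed at 0. Replicate 1 was highest in both groups and replicate 4 lowest, and the ranges of the groups overlapped. S100a9, a neutrophil calcium-binding protein gene, showed the same order at 14.35, 12.35, 13.30 and 11.84 in the libraries labelled Fgf10+/-, against 13.63, 12.56, 13.23 and 11.61 in wild type. Not every marker did so: Elane, a neutrophil elastase gene, was lowest in Fgf10+/- replicate 1 (4.17) among its group and highest in replicate 2 (5.49), and Csf3r was highest in Fgf10+/- replicate 4 (14.43). Over the 8 libraries Lcn2 and the marker mean had Pearson's r = 0.92 (exact permutation p = 0.00149, adjusted p = 0.0268 over 18 relations of 9 genes with 2 marker lists) and Spearman's rho = 0.88 (exact permutation p = 0.00724, adjusted p = 0.0964). The permutation treats the 8 libraries as exchangeable. If same-numbered libraries are not independent, which is unknown here, these p-values are too small. Without Fgf10+/- replicate 1 and wild-type replicate 4, the libraries farthest from the median of the markers, r was 0.85. For Lyz1 r was 0.85 (exact permutation adjusted p = 0.0980) and 0.67 without those libraries. For Chil1 it was 0.67 (exact permutation adjusted p = 0.186), and none of the 18 relations but that of Lcn2 with neutrophil markers by Pearson's r passed. Macrophage and monocyte markers, which include Chil3 and Lyz2, were averaged likewise. With their mean, Lcn2 had r = 0.75 (exact permutation adjusted p = 0.17), or 0.62 without replicate 4 of both groups. The part of neutrophils or macrophages in the Lcn2 values was not tested further.

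**Figure D3:**
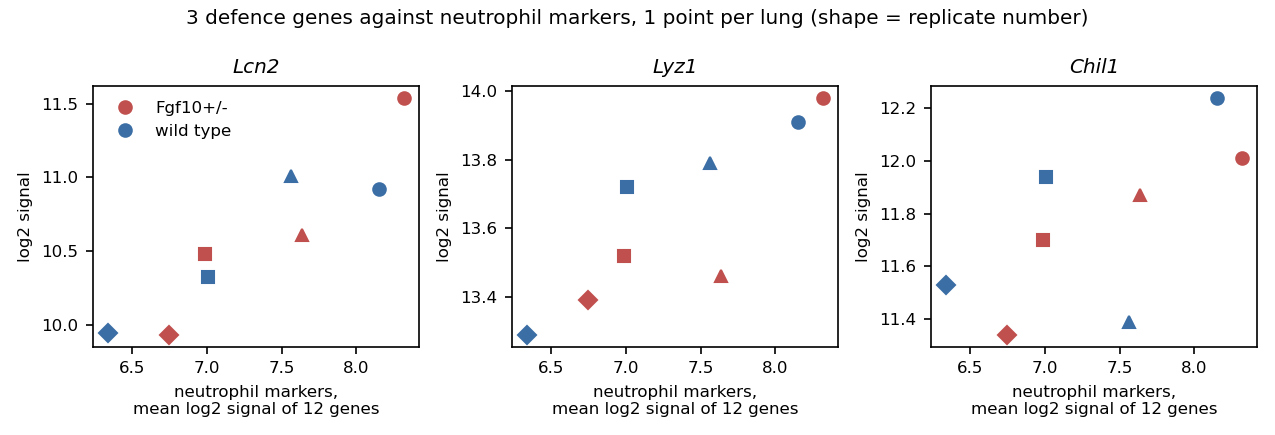
Log2 signal of Lcn2, Lyz1 and Chil1 (y axes) against the mean log2 signal of 12 neutrophil markers (x axis), 1 point per library, with libraries labelled Fgf10+/- in red and wild type in blue and shapes for replicate numbers. Lcn2 follows the markers most closely (r = 0.92), and red and blue points cover nearly the same range of marker signal, 6.75 to 8.32 and 6.34 to 8.15.

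Reg3g encodes a secreted C-type lectin that kills gram-positive bacteria and is inducible in airway epithelium. Its signal was 7.86, 8.32, 8.97 and 7.08 in the libraries labelled Fgf10+/-, against 8.26, 7.71, 8.61 and 7.86 in wild type. The highest and the lowest of the 8 values were both under the Fgf10+/- label, and the difference of -0.05 (SE 0.39, 95% interval -0.96 to 0.85; limma adjusted p = 0.977) was within that spread. The related Reg3b was dim, with a difference of 0.36 (SE 0.49).

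Chil1 encodes a chitinase-like lectin of macrophages and epithelium that binds chitin without cutting it. Its signal was 12.01, 11.70, 11.87 and 11.34 in the libraries labelled Fgf10+/-, against 12.24, 11.94, 11.39 and 11.53 in wild type. The groups overlapped over most of their range, with the lowest value under the Fgf10+/- label, the highest in wild type and a difference of -0.04 (SE 0.22, 95% interval -0.56 to 0.47; limma adjusted p = 0.965). The related Chil3, an abundant product of mouse alveolar macrophages, varied most widely of the named genes, running from 6.94 to 11.70 in the libraries labelled Fgf10+/- and from 7.69 to 9.85 in wild type. Its difference of 0.83 had an SE of 0.97 and ran from 0.11 without Fgf10+/- replicate 2 to 1.70 without Fgf10+/- replicate 4. The mean of 12 of 13 macrophage and monocyte markers, none dim, ran from 7.99 to 8.93 in the libraries labelled Fgf10+/- and from 8.55 to 9.02 in wild type. Chil3 and Lyz2 are among those 12 markers, so this mean is not independent of Chil3. Over the 8 libraries Chil1 and this mean had Pearson's r = 0.69 (exact permutation adjusted p = 0.177), or 0.45 without replicate 4 of both groups. The part of macrophages in the Chil1 and Chil3 values was not tested further.

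Pigr encodes the polymeric immunoglobulin receptor, which carries IgA through the epithelium into the airway. Its brighter feature gave 14.15, 14.10, 13.50 and 13.93 in the libraries labelled Fgf10+/-, against 13.89, 14.05, 13.70 and 13.55 in wild type. The lowest value and the 2 highest were under the Fgf10+/- label, and the difference of 0.12 (SE 0.18, 95% interval -0.29 to 0.53; limma adjusted p = 0.855) was within the spread. A second feature, closer to the floor, gave 6.23, 3.90, 4.13 and 2.91 in the libraries labelled Fgf10+/-, against 4.18, 1.94, 3.09 and 3.57 in wild type, and its difference of 1.09 did not pass (limma adjusted p = 0.662 over all features). The features shared their sign, their sizes disagreed, and averaging them gave 0.61.

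The members also differed in which library was highest or lowest. Fgf10+/- replicate 4 had the lowest value of 5 of the 9 genes and the highest of 0, while Fgf10+/- replicate 1 had the highest of 3 and the lowest of 0. Without wild-type replicate 4 the difference was -0.20 for Bpifa1, -0.22 for Lyz1, -0.13 for Reg3g, -0.13 for Chil1 and 0.04 for Pigr, each with its main sign. Where the SD of a member over the 8 libraries was at least 0.5, the gene with the most similar profile was sought by root mean square distance between centred log2 values. This gene was Zbtb22 for Muc1 (distance 0.13), Trem2, a receptor of macrophages, for Lcn2 (0.15) and Tspo2 for Reg3g (0.25), each over 8 libraries. Zbtb22 differed by -0.72 (SE 0.26; limma adjusted p = 0.354), Trem2 by 0.33 (SE 0.41) and Tspo2 by -0.23 (SE 0.38). These genes were picked for their match to a member over the same libraries, so their differences follow from that choice.

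No gene of the mucus layer passed the test. Of 25 measured genes for mucins and mucus machinery, 3 were higher and 1 was lower at an unadjusted p under 0.05 (all genes, 4.74% and 6.29%), 21 were not, and 9 were dim (median difference -0.15). Muc13, a membrane mucin, had 3.90, 5.57, 4.80 and 5.61 in the libraries labelled Fgf10+/-, against 3.68, 4.32, 2.29 and 4.07 in wild type. The 3 highest values were under the Fgf10+/- label, and the groups overlapped through replicate 1 (difference 1.38, SE 0.53; limma adjusted p = 0.394). Muc5ac, the gel-forming mucin of goblet cells, had 5.14, 4.33, 4.24 and 4.14 in the libraries labelled Fgf10+/-, against 4.24, 3.63, 3.70 and 3.03 in wild type, a difference of 0.81 (SE 0.30; limma adjusted p = 0.375), with 2 of the libraries labelled Fgf10+/- above all of wild type. Ern2, which encodes a stress sensor of mucin-making cells, was dim and differed by -0.54 (SE 0.20; limma adjusted p = 0.368) without overlap. The mean of 11 of 12 goblet and gland markers ran from 3.68 to 4.12 in the libraries labelled Fgf10+/- and from 3.35 to 4.01 in wild type, with 6 of them dim.

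Relatives of the BPI-fold proteins gave little signal: 9 of 11 measured genes were dim, and 0 had an unadjusted p under 0.05 in either direction (all genes, 11%). Their median difference was 0.01. Bpifa2, a salivary and gland protein, differed by 0.50 (SE 0.24), Bpifb2 by -0.34 (SE 0.19) and Bpifa6 by 0.42 (SE 0.25), all dim and none past the test. Of 31 antimicrobial peptides, lysozymes and antiproteases, 19 were dim, and 2 were lower and 0 higher at an unadjusted p under 0.05 (all genes, 6.29% and 4.74%). Their median difference was -0.01. One of the 2 lower genes was Lpo, the airway lactoperoxidase, which was dim (difference -0.76, SE 0.27; limma adjusted p = 0.344).

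The other was Wfdc2, an antiprotease-like secretory protein of airway epithelium, and its groups were cleanly parted. Its signal was 13.15, 13.24, 13.34 and 13.18 in the libraries labelled Fgf10+/-, against 13.86, 13.56, 13.95 and 13.57 in wild type. Every value under the Fgf10+/- label was below every wild-type value, which held for 4.4% of all genes. The means were 13.23 ± 0.08 in the libraries labelled Fgf10+/- and 13.73 ± 0.20 in wild type (SD, n = 4 each). The difference of -0.51 (SE 0.13) did not pass across all genes (limma adjusted p = 0.210) and was -0.56 without wild-type replicate 4. With the dimmer genes left out, at the 50th percentile of mean signal, the adjusted p was 0.0455.

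Collectins coat microbes in the alveolar fluid. Sftpa1, surfactant protein A, had 13.50, 13.22, 13.27 and 12.98 in the libraries labelled Fgf10+/-, against 14.09, 13.83, 13.97 and 13.74 in wild type, without overlap. Its difference of -0.67 (SE 0.14) had a limma adjusted p of 0.169, or 0.0300 with the dimmer 50% of genes left out. Sftpd, surfactant protein D, had 14.75, 14.35, 14.30 and 14.10 in the libraries labelled Fgf10+/-, against 15.18, 14.81, 15.01 and 14.56 in wild type, with overlap by replicate 1 (difference -0.52, SE 0.19; limma adjusted p = 0.354). Colec12, a scavenger receptor of the collectin family, had the opposite sign at 0.55 (SE 0.16; limma adjusted p = 0.270). Over 15 chitinases, lectins and collectins, 1 was higher and 2 were lower at an unadjusted p under 0.05 (all genes, 4.74% and 6.29%) and 6 were dim (median difference 0.05). Sftpa1 is also 1 of the 15 alveolar type 2 markers given above.

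**Figure D4:**
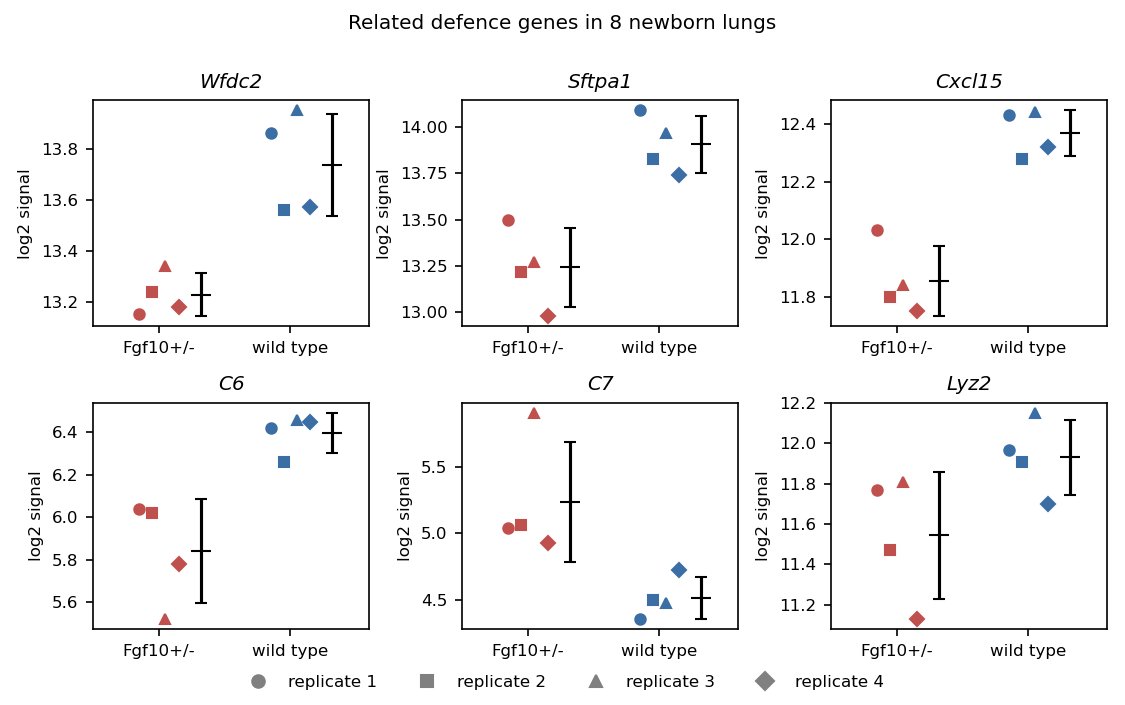
Log2 signal (y axis) of 6 related defence genes in each library, with the libraries labelled Fgf10+/- in red left of wild type in blue, shapes for replicate numbers, and bars for the mean ± SD of 4 libraries. Wfdc2, Sftpa1, Cxcl15 and C6 are lower and C7 is higher in every library labelled Fgf10+/- than in any of wild type, while Lyz2 overlaps. Of all genes, 4.4% were lower and 2.99% were higher without overlap.

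No complement gene passed the test either. Of 28 measured components and regulators, 2 were higher and 3 were lower at an unadjusted p under 0.05, a level that 11% of all genes reached, 23 were not, and 7 were dim (median difference 0.08). C6, a later component of the membrane attack complex, had 6.04, 6.02, 5.52 and 5.78 in the libraries labelled Fgf10+/-, against 6.42, 6.26, 6.46 and 6.45 in wild type. It was lower without overlap (difference -0.56, SE 0.14; limma adjusted p = 0.218). C7, the component that follows it in the complex, had 5.04, 5.06, 5.90 and 4.93 in the libraries labelled Fgf10+/-, against 4.36, 4.50, 4.48 and 4.73 in wild type, higher without overlap (difference 0.71, SE 0.22; limma adjusted p = 0.283). C8g differed by -0.88 (SE 0.31; limma adjusted p = 0.348) by its brighter feature and by 0.26 by its other one. By the brighter feature it was -0.56 without Fgf10+/- replicate 1, and averaging the features gave -0.31. C3, the centre of the cascade, differed by 0.05 (SE 0.41), with 13.70 and 11.51 as the highest and lowest of its libraries labelled Fgf10+/-, against 12.85 and 12.22 in wild type.

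Of 29 epithelial receptors and inducible signalling genes, 1 was higher and 1 was lower at an unadjusted p under 0.05 (all genes, 4.74% and 6.29%), and 7 were dim (median difference -0.04). Cxcl15, the lung-enriched epithelial chemokine called lungkine, had 12.03, 11.80, 11.84 and 11.75 in the libraries labelled Fgf10+/-, against 12.43, 12.28, 12.44 and 12.32 in wild type. It was lower without overlap (difference -0.51, SE 0.11; limma adjusted p = 0.166, or 0.0250 with the dimmer 50% of genes left out), and it is also 1 of the alveolar type 2 markers. Tlr5, the flagellin receptor, differed by 0.83 (SE 0.33; limma adjusted p = 0.413), and Il17rc, a subunit of the IL-17 receptor, by -0.22 (SE 0.12) by 1 feature and 0.40 by the other. For immunoglobulin transport, 0 of 7 measured genes had an unadjusted p under 0.05 (all genes, 11%) and 4 were dim (median difference 0.25). Fcgrt, the neonatal Fc receptor, differed by -0.20 (SE 0.12), Mzb1, a plasma cell chaperone, by 0.35 (SE 0.34) and Tnfrsf17, a plasma cell receptor, by 0.37 (SE 0.22), the last being dim.

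**Figure D5:**
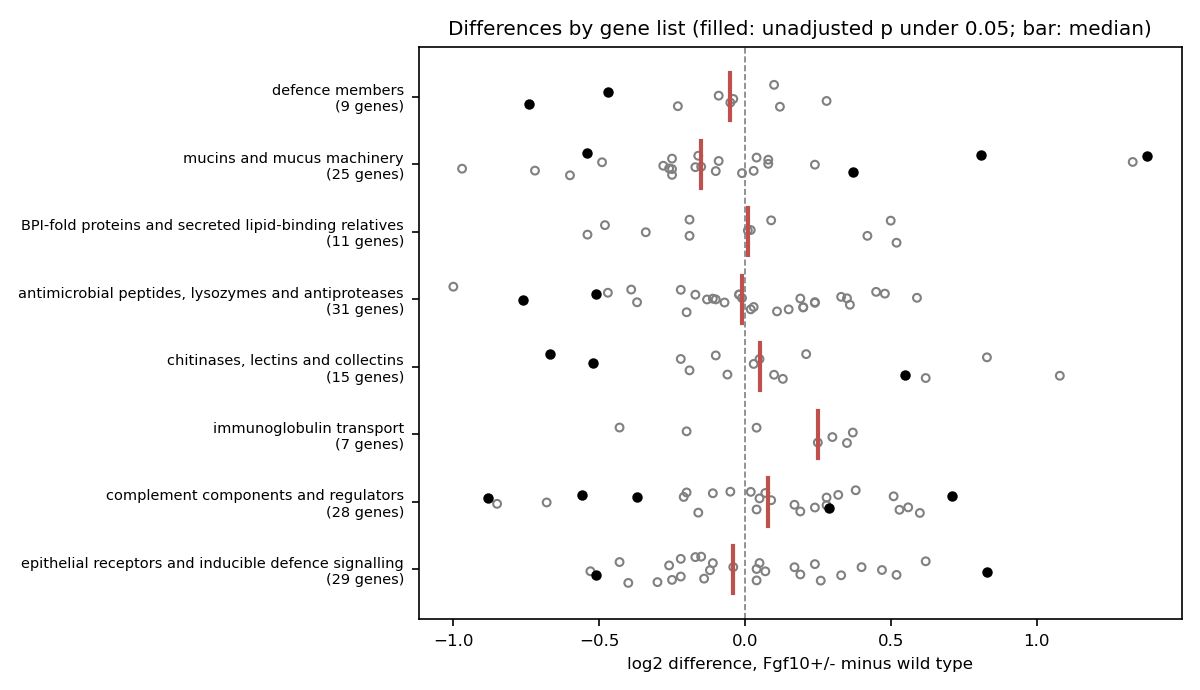
Log2 difference (libraries labelled Fgf10+/- minus wild type, x axis) of each measured gene in the defence members and in 7 related gene lists (rows), with filled points at an unadjusted limma p under 0.05 and red bars at the medians, which run from -0.15 to 0.25. Filled points lie on both sides of 0 in the mucin, lectin, complement and receptor rows, and only below it in the member and antimicrobial rows.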

How the data were processed

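Per the labels' protocols, miRNeasy extracts of 8 lungs were amplified (Agilent Low-Input QuickAmp) and carried Cy3. The deposited values are log2 signals of 62976 features. They had been quantile normalized by the authors, as the values show: sorted values differed by at most 0.00418 between arrays. Per the submitters' processing notes, limma had been used. Any background correction is not stated. In all, 120 features with a blank were left out. Of the features, 31465 had 1 symbol in the platform annotation and 31511 had none. Symbols were updated by accession through a RefSeq table (GRCm38.p6; 29050 matched, 2933 changed, among them those of Chil1 and Bpifa1). The brightest feature stood for a gene, giving 20842 genes. Groups came from the genotype labels.

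The test was limma 3.58.1 (R 4.3.3; group only, two-sided, Benjamini-Hochberg adjustment over all genes, threshold 0.05), beside exact permutation tests over 70 assignments for single genes. The number of arrays, 4 per group, limits the precision. On simulated data for this comparison (20842 genes), the fit recovered 42 of 100 genes shifted by 1 log2 unit and 81 of 100 shifted by 2 units, with 7 false calls among 130. The members, the 7 gene lists, the 12 marker lists and the rule for named genes were chosen with earlier results of these data known. The rule named all members, the 3 genes of each list with the smallest p where none passed, and Lyz2, Reg3b, Muc5ac, Chil3, C3, Bpifa2 and Fgf10. The 19 alternatives covered the choice of feature, normalization, filters on dim genes, variance model, array weights, the replicate block and libraries left out. A pseudocount for linear values did not apply. Figures were drawn with matplotlib 3.10.9.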

Additional observations from a re-analysis of the deposited data

Results flagged for a closer look

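Among 92 groups of 4 values (the named genes and marker lists in each group), 7 had 1 library far from the other 3, and chance gives about 1 in 20 such groups. Hc had 13.56 in wild-type replicate 3, against 13.81 to 13.84 in the other wild-type libraries. C7 had 5.90 in Fgf10+/- replicate 3, against 4.93 to 5.06 in the others of its group. C8g had 5.70 in wild-type replicate 4, against 5.39 to 5.43 in the other wild-type libraries.

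The remaining 4 were means of marker lists. Macrophage and monocyte markers were at 7.99 in Fgf10+/- replicate 4, against 8.80 to 8.93 in the others of its group. Chil3, 1 of these 12 markers, had 6.94 in that library, against 9.04 to 11.70 in the others of its group. Whether the flag holds without Chil3 was not tested. Club cell markers were at 10.99 in wild-type replicate 3, against 10.82 to 10.83 in the other wild-type libraries. Wild-type replicate 4 had skeletal muscle markers at 8.18 and cartilage markers at 7.72, against at most 4.57 and 3.72 in the other wild-type libraries.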

How the results depend on the processing

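The count of genes past an adjusted p of 0.05 by limma, 0 in the main setting, was 38 with genes below the 25th percentile of mean signal left out, 288 with those below the 50th left out, 414 with limma's trend and robust options and 3 with array weights. It ran from 0 to 1 when each library was left out, with the 1 without wild-type replicate 4. None of these calls was a member: the lowest adjusted p was 0.0591 for Muc1 (trend and robust options) and 0.150 for Hc (dimmer 50% left out). Wfdc2, Sftpa1 and Cxcl15 passed with that trend, at 0.00234, 0.00763 and 0.000790, and with the dimmer 50% left out. The members at an unadjusted p under 0.05 ran from 1 to 2 when each library was left out (Muc1 alone without Fgf10+/- replicate 3 or 4 or wild-type replicate 1, 2 or 4; Muc1 and Bpifa1 without Fgf10+/- replicate 2) and were 1 without both wild-type replicate 4 and Fgf10+/- replicate 3. Their median difference ran from -0.20 to 0.08. The sign held in 160 of 170 values of the members. It turned for Lcn2 (-0.10 with array weights and without both those libraries, and -0.20 to 0.33 leaving out each library), Reg3g (-0.36 to 0.27; -0.44 without both, the main sign) and Chil1 (-0.17 to 0.11), and likewise for C3 (-0.32 to 0.41; 0.52 without both, the main sign) and, averaging features, Il17rc (0.09). Leaving out each library gave -0.94 to -0.63 for Muc1 and -0.62 to -0.38 for Hc, -0.53 to -0.06 for Bpifa1, 0.10 to 0.47 for Muc5b, -0.22 to -0.01 for Lyz1 and 0.04 to 0.26 for Pigr, which was 0.61 with its features averaged. Same-numbered libraries correlated at 0.0178 to 0.113 in their deviations from the group means over all genes, below 0.1 in 3 of 4 pairs. Libraries of different numbers correlated at -0.155 to 0.0695. The numbers were not taken as pairs, since all these values were low. The same-numbered values were nevertheless all above 0, and the mean of the neutrophil markers had the same order of replicates in both groups. Some shared structure is therefore possible. With a replicate block 0 genes passed (2469 at an unadjusted p under 0.05), and the limma adjusted p was 0.312 for Muc1 and 0.360 for Hc. Signal close to the floor limits Bpifa1 and the dim relatives. The causes were not tested.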

Other observations

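For marker lists of other cell types only counts of means and ranges are given, since no marker passed an adjusted p of 0.05 by limma (0 of 20842 genes did, and 2298 had an unadjusted p under 0.05). Of 12 ciliated cell markers, all 12 had lower means in the libraries labelled Fgf10+/-, and their mean signal ran from 7.25 to 7.69, against 7.75 to 8.21 in wild type. Of 10 alveolar type 1 markers 9 had lower means, with mean signals of 11.04 to 11.17 against 11.25 to 11.34 in wild type. Of 10 basal and stratified epithelium markers 7 had higher means, and their mean signal ran from 3.64 to 3.83 in the libraries labelled Fgf10+/- and from 3.61 to 3.84 in wild type, with 7 dim. The 5 measured B and plasma cell markers, of 8 listed, all had higher means in the libraries labelled Fgf10+/-, at 5.66 to 6.61 against 5.56 to 6.32 in wild type, and 0 of them had an unadjusted p under 0.05 by limma.

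Neutrophil genes other than those named above varied between libraries of 1 genotype as well. Retnlg, a granulocyte secreted protein gene, had 9.28, 7.46, 8.42 and 6.96 in the libraries labelled Fgf10+/-, against 8.54, 7.67, 8.07 and 6.66 in wild type. Csf3r, the receptor of granulocyte colony-stimulating factor, did not share that order, at 14.26, 14.22, 14.06 and 14.43 against 14.06, 14.15, 14.22 and 14.16 in wild type. Retnlg, Csf3r, Elane and S100a9 were picked after their values were seen.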
